A study of Homo sapiens with 6 samples.

Results

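The 37 genes described here carry glucose carbon from the plasma membrane to lactate or to the mitochondrial matrix. They encode the glucose transporters, the enzymes of each glycolytic step, the lactate dehydrogenases and lactate carriers, the mitochondrial pyruvate carrier, and the pyruvate dehydrogenase complex with its kinases and a phosphatase. They were taken by gene symbol from the 22701 genes of the deposited table, and all 37 were listed there. The list was drawn up with earlier results of these data known, so its counts set beside those of all genes are descriptions. Polyadenylated RNA was sequenced from LX-2, a human line of hepatic stellate cells, the collagen-making cells of the fibrotic liver, in 2 groups of 3 libraries. The first group received TGF-β at a stated 5 µg/mL together with 20 µM LIG (ligustilide, a phthalide of Angelica and Ligusticum roots), and the second received TGF-β alone at the same stated dose. TGF-β, which drives stellate cells towards myofibroblasts, was thus present in both groups, and cells without it were not analysed here, so the comparison addresses LIG on top of TGF-β. No treatment time is labelled and separate cultures are not mentioned, so a p-value here reflects the spread among these libraries, which may be technical.

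In glycolysis, glucose enters through GLUT transporters, is trapped by hexokinase, is committed by phosphofructokinase and is split by aldolase into trioses that yield ATP and pyruvate. Lactate dehydrogenase can reduce pyruvate to lactate, which leaves the cell through monocarboxylate transporters, or the pyruvate carrier can bring it to pyruvate dehydrogenase, which its kinases switch off by phosphorylation. Most steps have several isoenzymes. Some of them are known targets of the hypoxia-inducible factor HIF-1, and others are usually regarded as more constitutive. Activated stellate cells are known for high glycolysis and lactate output.

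The promoters of the 4 genes whose mean level was lower by at least 20% with LIG are shown first, beside that of LDHB, the partner of LDHA. Each line gives the 250 bases before the outermost RefSeq start of the gene (GRCh38.p14), 5′ to 3′ on the strand of the gene. Capitals mark ACGTG on either strand, the core that HIF-1 and several other factors bind. Where CACGTG occurs, the matches on the 2 strands overlap and count as 1 place. That longer motif is also the E-box of MYC and related factors.
PDK1 (chr2:172555123-172555372, plus strand): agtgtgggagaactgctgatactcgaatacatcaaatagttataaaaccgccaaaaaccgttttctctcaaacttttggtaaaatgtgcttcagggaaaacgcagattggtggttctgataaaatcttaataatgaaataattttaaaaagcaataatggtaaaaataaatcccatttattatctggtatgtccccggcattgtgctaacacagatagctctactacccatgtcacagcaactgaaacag
ALDOC (chr17:28576896-28577145, minus strand): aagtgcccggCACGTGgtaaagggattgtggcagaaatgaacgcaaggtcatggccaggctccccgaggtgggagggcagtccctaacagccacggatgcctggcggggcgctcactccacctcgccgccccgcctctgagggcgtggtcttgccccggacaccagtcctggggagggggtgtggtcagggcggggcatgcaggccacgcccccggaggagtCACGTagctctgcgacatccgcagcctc
HK2 (chr2:74833877-74834126, plus strand): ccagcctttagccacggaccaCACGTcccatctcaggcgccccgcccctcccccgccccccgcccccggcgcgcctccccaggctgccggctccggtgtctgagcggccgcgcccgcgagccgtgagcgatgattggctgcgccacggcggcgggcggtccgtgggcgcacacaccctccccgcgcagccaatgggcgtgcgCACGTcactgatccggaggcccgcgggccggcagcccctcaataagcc
LDHA (chr11:18394313-18394562, plus strand): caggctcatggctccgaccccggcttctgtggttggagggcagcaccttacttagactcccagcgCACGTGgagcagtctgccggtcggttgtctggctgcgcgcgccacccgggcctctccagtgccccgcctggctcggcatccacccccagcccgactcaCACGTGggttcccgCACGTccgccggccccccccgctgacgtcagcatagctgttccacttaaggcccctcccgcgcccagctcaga
LDHB (chr12:21657843-21658092, minus strand): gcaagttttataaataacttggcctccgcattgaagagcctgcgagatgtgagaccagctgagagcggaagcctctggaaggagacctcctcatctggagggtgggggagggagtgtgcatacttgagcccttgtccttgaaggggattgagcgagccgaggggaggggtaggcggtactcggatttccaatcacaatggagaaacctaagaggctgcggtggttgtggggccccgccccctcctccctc

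The motif occurred at 3 places before LDHA, at 2 before ALDOC and at 2 before HK2, and these letters were not in the windows of PDK1 and LDHB. A further RefSeq start of PDK1, 717 bases downstream, had a window with 2 places, a further start of HK2, 1043 bases downstream, one with 2, and a further start of LDHA, 1788 bases downstream, one with 0. With 1 window a gene, 11 of the 33 genes of the pathway with a RefSeq window held the motif, against 18.7% of the 27305 windows of all genes. That share was not limited to genes expressed here, so the 2 sets are unlike and the difference was not tested. It was in 5 of the 10 windows of genes lower in each TGF-β + LIG library and in 6 of the other 23. A match is a description of the sequence and not a measured binding site.

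With LIG, 12 of the 35 genes tested were lower in each library than in any TGF-β library, as were 6.73% of all genes tested: SLC2A1, SLC2A3, HK2, PFKL, PFKFB3, ALDOC, PGK1, PGAM1, ENO2, LDHA, PDP1 and PDK1. The most abundant transcripts, GAPDH, PKM, TPI1 and ENO1, had overlapping values. Of the 12, only PDK1, a kinase that inhibits pyruvate dehydrogenase, passed the test over all genes, at the edge of the threshold (limma adjusted p = 0.0494). It entered the test through its TGF-β libraries, since its TGF-β + LIG mean lay below the filter on low values, and its call was lost in each of the 6 fits that left out 1 library (adjusted p = 0.0844 to 0.262). The changes in mean FPKM were -26.3% for ALDOC, -24.7% for HK2 and -23.9% for LDHA, and these did not pass. Levels are in FPKM, fragments scaled to gene length and library total. Differences are changes in log2(FPKM + 1), TGF-β + LIG minus TGF-β, with their standard error (SE), and a gene passed at a Benjamini-Hochberg adjusted p under 0.05 in limma over the 10695 genes whose FPKM averaged 1 or more. Values of single libraries are given in the order of replicates 1 to 3. In bulk RNA, a lower level may come from fewer cells of a state or from less RNA per cell, and these cannot be told apart.

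Of the 37 genes, 35 passed the filter on low values and were tested. PFKFB2, which makes and degrades the phosphofructokinase activator fructose 2,6-bisphosphate, was below it at 0.868 ± 0.119 FPKM in TGF-β + LIG cells and 0.969 ± 0.0290 FPKM in TGF-β cells (SD, n = 3 each). PDK4, a pyruvate dehydrogenase kinase induced by fasting, had 0 to 4 fragments per library. Of the 35, 1 fell and 34 did not pass, where 0.505% of all tested genes fell and 0.187% rose (0.692% in all). For 12 of the 35 (34.3%) the 3 TGF-β + LIG libraries lay below the 3 TGF-β libraries, against 6.73% of all tested genes, and for 1 (PFKM, 2.86%) they lay above, against 9.07% (15.8% in either direction). At an unadjusted p under 0.05, 10 were lower and 0 higher, against 4.21% and 4.2% of all tested genes (8.41% in all). The median log2 change was -0.05 over the 35 and 0.03 over all genes tested; 23 of the 35 (65.7%) and 39.1% of all genes tested had a change below 0. The plot of changes along the pathway shows that the lower genes were spread over it, from glucose import to the pyruvate dehydrogenase kinases, with overlapping genes between them.

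**Figure D1:**
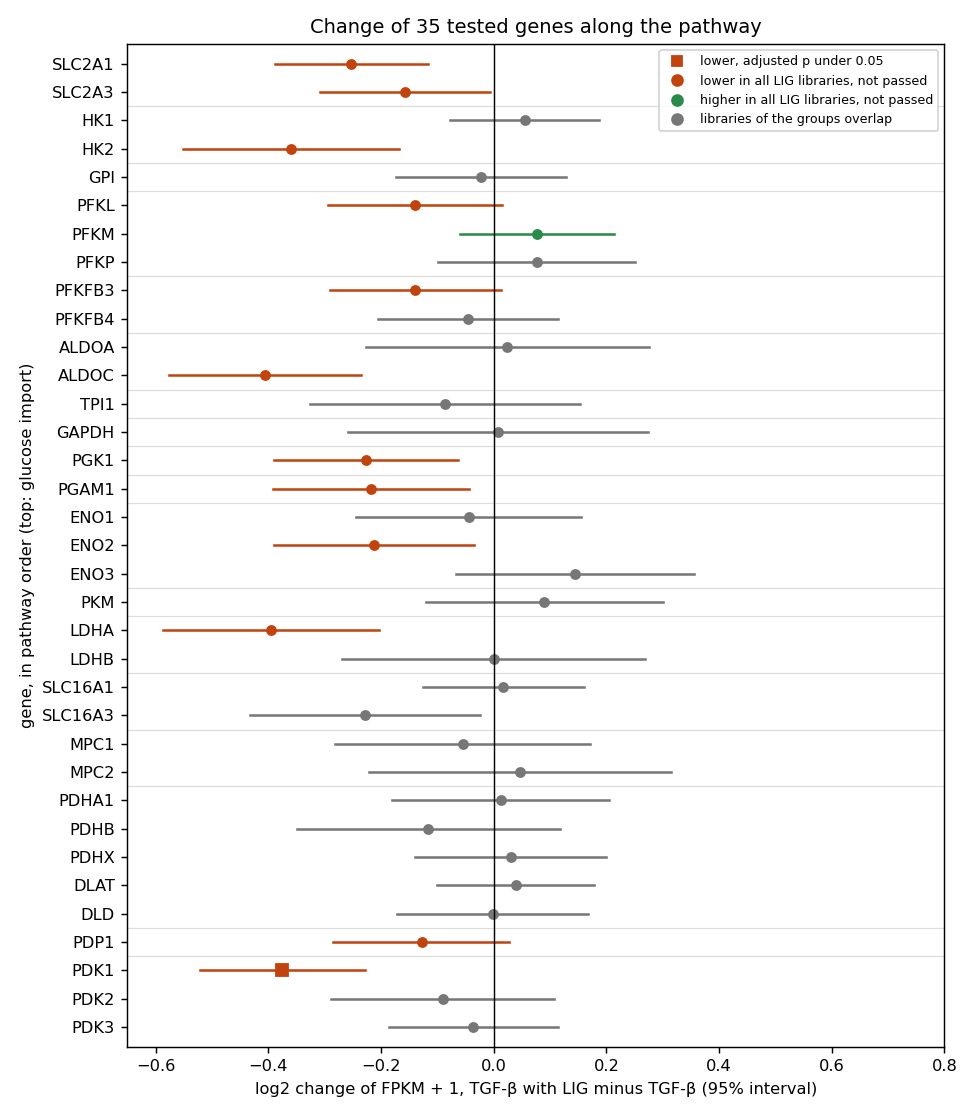
Log2 change of FPKM + 1, TGF-β + LIG minus TGF-β, for the 35 tested genes in pathway order (points, with bars for the 95% interval of the limma fit; grey lines separate steps). The square is PDK1, which passed; red genes were lower in every TGF-β + LIG library than in every TGF-β library, green is PFKM, higher in every one, and grey genes overlapped.

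The libraries held 38100406 to 38946644 fragments in TGF-β + LIG cells and 38261868 to 38694854 in TGF-β cells, as recovered from the FPKM steps. The 35 genes had from 98 fragments (ENO3) to 122900 (GAPDH) in a library. TGF-β + LIG replicate 3 and TGF-β replicate 2 stood apart on the first principal component of all tested genes (55.1% of variance). Of the 37 genes, 26 had their highest TGF-β + LIG value in replicate 3 (50.3% of all tested genes did) and 19 their highest TGF-β value in replicate 2 (48.8% did). Stellate markers were present as VIM at 1872 ± 190.3 FPKM in TGF-β + LIG cells and 1832 ± 123 FPKM in TGF-β cells and COL1A1 at 503 ± 10.4 FPKM in TGF-β + LIG cells and 665 ± 41.02 FPKM in TGF-β cells, whereas DES, the muscle-type filament of quiescent and activated stellate cells, was at or below 0.012 FPKM in all 6 libraries. ACTA2, the smooth muscle actin of activated stellate cells, was at 2.97 ± 0.247 FPKM in TGF-β + LIG cells and 2.77 ± 0.661 FPKM in TGF-β cells, and PDGFRA and RGS5 were at or below 0.388 FPKM. Of 10 tested stellate markers 1, SPARC, fell (limma adjusted p = 0.0435), where 0.505% of all tested genes fell. COL1A1, PDGFRB and TAGLN were lower and TIMP1 higher in each TGF-β + LIG library, and these did not pass. With SPARC, 4 of the 10 were lower in this way and 1 higher, against 6.73% and 9.07% of all tested genes. VIM, ACTA2, THY1, HAND2 and COL1A2 had overlapping groups. COL1A2 was at 5.08, 3.28 and 3.24 FPKM with TGF-β + LIG, against 0.675, 0.708 and 6.725 FPKM with TGF-β. Summed FPKM of 5 endothelial markers was 0.17 to 0.24 in TGF-β + LIG and 0.22 to 0.34 in TGF-β libraries. That of 5 hepatocyte markers, nearly all SERPINA1, was 3.34 to 4.92 with TGF-β + LIG and 3.57 to 4.07 with TGF-β, and HNF4A was at or below 0.004. For cholangiocytes, 4 markers summed to 11.2 to 11.9 FPKM in TGF-β + LIG and 13.6 to 13.9 in TGF-β libraries, mostly SOX9, with KRT19 at 0 in the TGF-β + LIG libraries and EPCAM at or below 0.066 FPKM in all 6. The 7 leukocyte and macrophage markers summed to 14.01 to 15.6 FPKM with TGF-β + LIG and 12.9 to 14.98 FPKM with TGF-β, mostly the lysosomal gene CD68, with PTPRC at or below 0.016 FPKM. No tested marker of these 4 other cell types passed, and their part in the results was not tested.

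Both glucose transporter genes were lower in each TGF-β + LIG library. SLC2A1, which encodes GLUT1, the main basal glucose transporter of cultured cells (GRCh38 by GENCODE 29, as for all gene positions here: chromosome 1, 42925375 to 42959176), was at 27.7, 27.5 and 29.02 FPKM with TGF-β + LIG, against 34.4, 32.7 and 33.8 FPKM with TGF-β. The groups were well apart, with a change of -16.5% in the mean, which did not pass (log2 change -0.25, SE 0.06; limma adjusted p = 0.181). SLC2A3, the high-affinity transporter GLUT3, was at 5.96, 5.97 and 5.904 FPKM with TGF-β + LIG, against 6.81, 7.101 and 6.34 FPKM with TGF-β. Its groups also did not overlap, although the gap between the highest TGF-β + LIG and the lowest TGF-β library was small (limma adjusted p = 0.567). Their summed level was 34.01 ± 0.793 FPKM with TGF-β + LIG and 40.4 ± 0.705 FPKM with TGF-β (SD, n = 3 each), and SLC2A1 made up 82.5% of it with TGF-β + LIG and 83.3% with TGF-β.

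The hexokinases, which phosphorylate glucose, differed from each other. HK2, the inducible form (chromosome 2, 74833981 to 74893359), was at 6.39, 6.53 and 5.46 FPKM with TGF-β + LIG, against 8.68, 7.64 and 8.08 FPKM with TGF-β. Here TGF-β + LIG replicate 3 was the lowest of all, and the TGF-β + LIG values lay below the TGF-β values (log2 change -0.36, SE 0.08; limma adjusted p = 0.176, not passed). HK1, the widely expressed form, was at 34.5, 33.02 and 34.5 FPKM with TGF-β + LIG, against 33.4, 32.2 and 32.5 FPKM with TGF-β, with overlapping groups (limma adjusted p = 0.905). HK1 was the more abundant per length, so the step's summed level was 40.1 ± 0.678 FPKM with TGF-β + LIG and 40.8 ± 1.18 FPKM with TGF-β, and overlapped, while the share of HK2 in it was 15.3 ± 1.46% with TGF-β + LIG and 19.9 ± 0.718% with TGF-β (SD, n = 3 each).

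GPI, the isomerase that follows, was at 21.5, 23.4 and 24.1 FPKM with TGF-β + LIG, against 24.03, 22.8 and 23.2 FPKM with TGF-β, with overlapping groups and a 95% interval of the log2 change of -0.17 to 0.13. Of the phosphofructokinase subunits, PFKL, the liver type, was at 17.6, 18.1 and 20.05 FPKM with TGF-β + LIG, against 20.6, 20.4 and 20.6 FPKM with TGF-β, lower in each TGF-β + LIG library but nearly touching through replicate 3 (limma adjusted p = 0.647). PFKM, the muscle type, had its TGF-β + LIG values above its TGF-β values, at 16.1, 16.1 and 16.1 FPKM with TGF-β + LIG, against 15.5, 14.5 and 15.6 FPKM with TGF-β (limma adjusted p = 0.834, not passed). PFKP, the platelet type and the most abundant of the 3, was at 32.3, 30.3 and 32.6 FPKM with TGF-β + LIG, against 29.5, 27.9 and 32.9 FPKM with TGF-β. Its groups overlapped, and so did the summed level of the 3 subunits, at 66.4 ± 2.17 FPKM with TGF-β + LIG and 65.8 ± 3.18 FPKM with TGF-β (SD, n = 3 each).

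The bifunctional enzymes set the level of fructose 2,6-bisphosphate. PFKFB3, the form with the strongest kinase activity and the most abundant of them here, was at 11.4, 11.7 and 11.4 FPKM with TGF-β + LIG, against 12.02, 12.7 and 13.6 FPKM with TGF-β. The groups did not overlap and the difference did not pass (limma adjusted p = 0.642). PFKFB4 was at 3.33 ± 0.0911 FPKM in TGF-β + LIG cells and 3.48 ± 0.259 FPKM in TGF-β cells (SD, n = 3 each) and overlapped.

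ALDOC, the aldolase of brain and of hypoxic cells (chromosome 17, 28573115 to 28577264), had one of the widest gaps between the groups. It was at 9.88, 9.41 and 10.8 FPKM with TGF-β + LIG, against 12.7, 14.2 and 13.9 FPKM with TGF-β. The highest TGF-β + LIG value lay below the lowest TGF-β value (log2 change -0.41, SE 0.07), and the adjusted p was just above the threshold (limma adjusted p = 0.0667). It passed without TGF-β + LIG replicate 3 (limma adjusted p = 0.0295) and after rescaling to TPM (0.0279); over all alternatives its adjusted p ran from 6.3e-05 to 0.399. ALDOA, usually the main aldolase of cultured cells, was at 2.79, 2.36 and 2.86 FPKM with TGF-β + LIG, against 2.33, 2.33 and 3.22 FPKM with TGF-β, with 193 to 268 fragments per library and overlapping groups. GENCODE 29 places another gene model, AC093512.2, on the strand of ALDOA over 42.3% of the exon bases of ALDOA. The matching RefSeq locus, LOC112694756, was at 0.278 to 0.383 FPKM in TGF-β + LIG and 0.269 to 0.384 FPKM in TGF-β libraries. The counting rule for such overlaps is not given in the sources used here, so the level of ALDOA, and with it the summed level of the step, is uncertain. For ALDOC, the exons of AC005726.4 on the opposite strand cover 10.1% of its exon bases.

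The trunk of the pathway below aldolase held the most abundant transcripts. TPI1, which interconverts the trioses, was at 401, 399 and 482 FPKM with TGF-β + LIG, against 424, 488 and 447 FPKM with TGF-β. GAPDH, which makes the first NADH, was at 1469, 1521 and 1808 FPKM with TGF-β + LIG, against 1533, 1653 and 1571 FPKM with TGF-β. In both, the groups overlapped and a replicate that stands apart was the highest of its group. GAPDH has 65 named pseudogenes in RefSeq, and how reads shared with them were counted is not given in the sources used here.

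PGK1 and PGAM1, in contrast, were lower in each TGF-β + LIG library. PGK1, the first ATP-yielding enzyme (chromosome X, 77910739 to 78129296), was at 148, 143 and 156 FPKM with TGF-β + LIG, against 168, 182 and 174 FPKM with TGF-β (log2 change -0.23, SE 0.07; limma adjusted p = 0.357). PGAM1, the mutase of the next step, was at 94.6, 97.9 and 105 FPKM with TGF-β + LIG, against 114, 123 and 109 FPKM with TGF-β (limma adjusted p = 0.429). Neither passed. PGAM1 has 13 named pseudogenes in RefSeq and is uncertain for the same reason as GAPDH.

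Of the enolases, ENO1, the ubiquitous form, was at 339, 334 and 389 FPKM with TGF-β + LIG, against 352, 373 and 368 FPKM with TGF-β, and overlapped. ENO2, the neuronal form that is also induced in hypoxia, was at 8.798, 10.2 and 10.6 FPKM with TGF-β + LIG, against 11.6, 11.6 and 11.5 FPKM with TGF-β. Its TGF-β values were nearly identical and the TGF-β + LIG values lay below them (log2 change -0.21, SE 0.08; limma adjusted p = 0.467, not passed). ENO3, the muscle form, was at 1.98 ± 0.281 FPKM in TGF-β + LIG cells and 1.697 ± 0.198 FPKM in TGF-β cells (SD, n = 3 each) with overlapping groups. PKM, the pyruvate kinase gene, was at 529, 526 and 614 FPKM with TGF-β + LIG, against 513, 518 and 534 FPKM with TGF-β. Its groups overlapped through TGF-β + LIG replicates 1 and 2 and TGF-β replicate 3 (limma adjusted p = 0.899); the table gives 1 value for the gene, so its splice forms M1 and M2 were not separated.

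**Figure D2:**
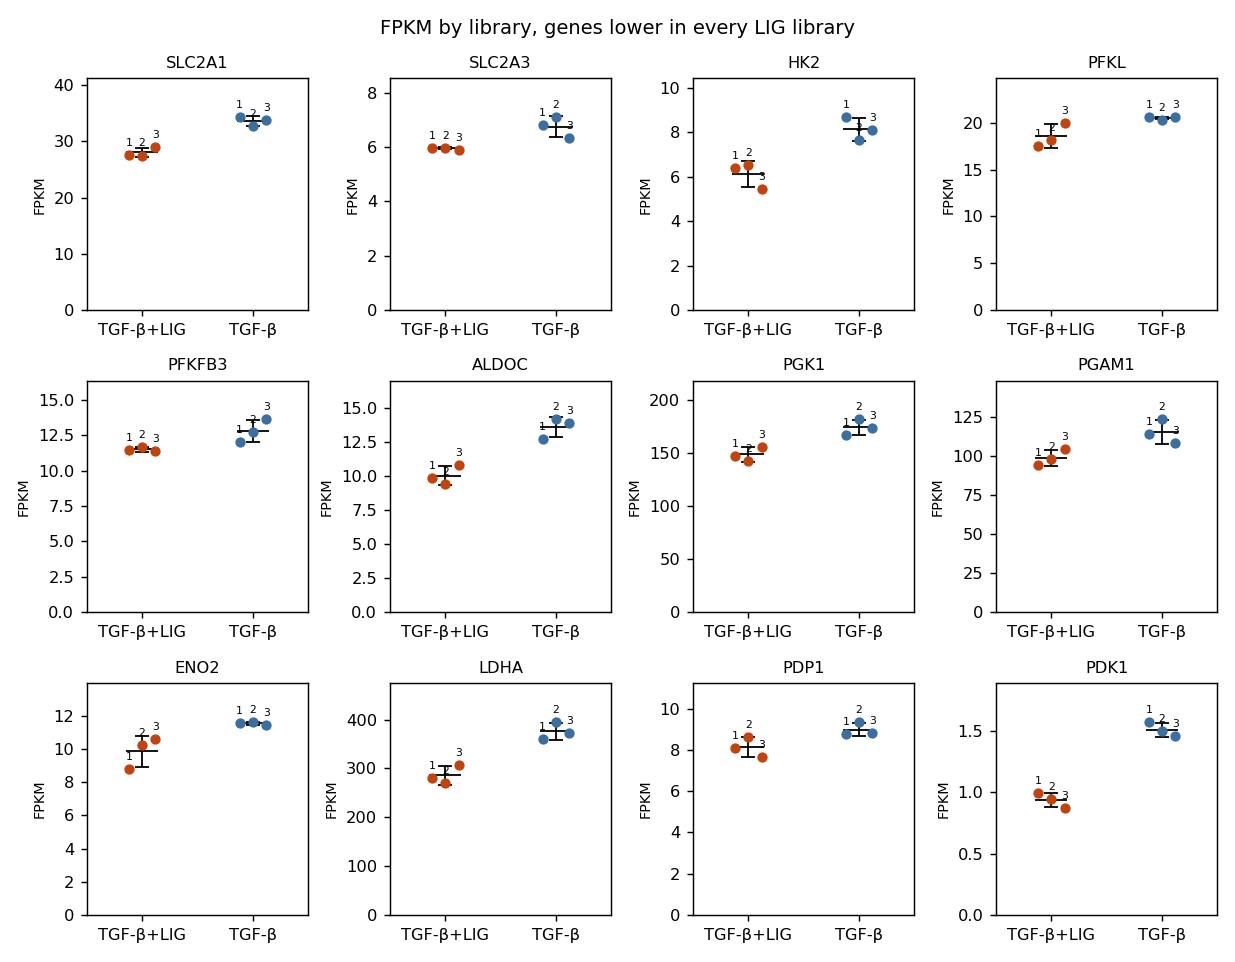
FPKM by library (points, numbered by replicate; bars show mean and SD, n = 3) for the 12 genes whose 3 TGF-β + LIG libraries lay below their 3 TGF-β libraries. Each axis starts at 0. PDK1, ALDOC, HK2 and LDHA have the widest relative gaps, and SLC2A3, PFKL, PFKFB3, PGAM1 and PDP1 narrow ones.

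At the branch to lactate, LDHA was lower in each TGF-β + LIG library and LDHB was not. LDHA, whose M subunit favours lactate formation (chromosome 11, 18394388 to 18408425), was at 281, 269 and 307 FPKM with TGF-β + LIG, against 360.3, 395 and 372 FPKM with TGF-β. The groups were well separated (log2 change -0.40, SE 0.08), yet the difference did not pass (limma adjusted p = 0.118). It passed without TGF-β + LIG replicate 3 (limma adjusted p = 0.0318), after rescaling to TPM (0.0122) and on recovered fragments (0.0332), within a range of 7.02e-05 to 0.58 over all alternatives. LDHB, whose H subunit favours pyruvate formation, was at 239, 234 and 294 FPKM with TGF-β + LIG, against 230.2, 285 and 251 FPKM with TGF-β, with means of 256 FPKM with TGF-β + LIG and 255 FPKM with TGF-β and a 95% interval of the log2 change of -0.27 to 0.27. LDHA over LDHB was 1.18, 1.15 and 1.04 with TGF-β + LIG and 1.56, 1.39 and 1.48 with TGF-β. The ratio was thus lower in each TGF-β + LIG library, and the share of LDHA in the summed level was 52.9 ± 1.59% with TGF-β + LIG and 59.6 ± 1.47% with TGF-β (SD, n = 3 each). GENCODE 29 places the gene model AC010197.2 over 33.4% of the exon bases of LDHB on its strand, which leaves the LDHB level uncertain.

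Lactate leaves through the carriers MCT1 and MCT4. SLC16A3, which encodes MCT4, the exporter of glycolytic cells, was at 33.4, 31.5 and 39.3 FPKM with TGF-β + LIG, against 38.8, 41.3 and 41.9 FPKM with TGF-β. TGF-β + LIG replicate 3 lay within the TGF-β range, and the other 2 lay below it (log2 change -0.23, SE 0.09; limma adjusted p = 0.516, not passed). Without both libraries that stand apart it passed, at 32.4 FPKM with TGF-β + LIG and 40.4 FPKM with TGF-β (n = 2 each; limma adjusted p = 0.00992), a choice of libraries made with the data known. SLC16A1, which encodes MCT1, was at 43.1, 42.4 and 42.5 FPKM with TGF-β + LIG, against 40.9, 44.7 and 41.04 FPKM with TGF-β, and overlapped.

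**Figure D3:**
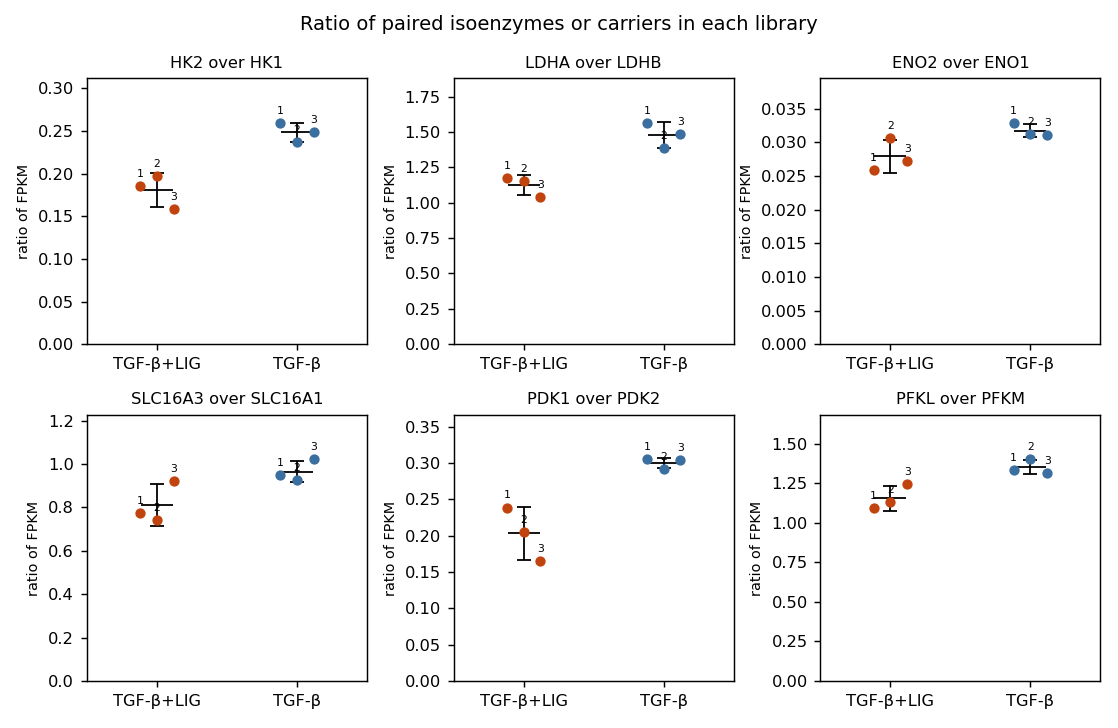
Ratio of FPKM values within each library for 6 pairs of isoenzymes, subunits or carriers (points, numbered by replicate; bars show mean and SD, n = 3; axes start at 0). In each pair the 3 TGF-β + LIG ratios lay below the 3 TGF-β ratios; the pairs were chosen with the values known and no test was made.

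The plot of ratios sets each such pair side by side within a library, where a common scaling factor cancels. HK2 over HK1 was 0.185, 0.198 and 0.158 with TGF-β + LIG and 0.260, 0.237 and 0.249 with TGF-β. SLC16A3 over SLC16A1 was 0.773, 0.742 and 0.923 with TGF-β + LIG and 0.948, 0.926 and 1.02 with TGF-β, with TGF-β + LIG replicate 3 just under TGF-β replicate 2. PDK1 over PDK2 was 0.239, 0.205 and 0.165 with TGF-β + LIG and 0.305, 0.292 and 0.304 with TGF-β. The TGF-β ratios of PDK1 to PDK2 were close together, and the TGF-β + LIG ratios were lower and more spread.

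The 7 genes of the pyruvate carrier and the pyruvate dehydrogenase complex all had overlapping groups. Most tested genes did, as only 15.8% of them had groups that did not overlap. MPC1, a subunit of the carrier, was at 6.75 ± 0.543 FPKM in TGF-β + LIG cells and 7.08 ± 0.962 FPKM in TGF-β cells (SD, n = 3 each). Its partner MPC2 was at 7.08 ± 1.11 FPKM in TGF-β + LIG cells and 6.81 ± 0.880 FPKM in TGF-β cells. Of the pyruvate dehydrogenase complex, PDHA1, the E1 subunit that the kinases phosphorylate, was at 37.8 ± 3.62 FPKM in TGF-β + LIG cells and 37.4 ± 2.28 FPKM in TGF-β cells. PDHB, its partner and the most abundant of the complex, was at 54.96, 55.2 and 68.7 FPKM with TGF-β + LIG, against 60.9, 69.6 and 62.9 FPKM with TGF-β. TGF-β + LIG replicate 3 lay among the TGF-β values and the other 2 below them (limma adjusted p = 0.871). DLAT, the E2 core, was at 31.03 ± 0.602 FPKM in TGF-β + LIG cells and 30.2 ± 1.28 FPKM in TGF-β cells; DLD, the E3 dehydrogenase, at 42.2 ± 2.19 FPKM in TGF-β + LIG cells and 42.3 ± 2.91 FPKM in TGF-β cells; and PDHX, which tethers E3, at 10.8 ± 0.673 FPKM in TGF-β + LIG cells and 10.6 ± 0.676 FPKM in TGF-β cells. The 95% intervals of their log2 changes were -0.10 to 0.18 for DLAT, -0.17 to 0.17 for DLD and -0.14 to 0.20 for PDHX. Summed over the 5 genes, the level was 182 ± 13.4 FPKM with TGF-β + LIG and 185 ± 11.6 FPKM with TGF-β. Exons of other genes on the opposite strand cover 21.3% of PDHA1 (MAP3K15), 22.5% of MPC2 (DCAF6) and 38.6% of PDK2 (SAMD14), and whether counting used strand is not given in the sources used here.

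The kinases that inactivate the complex held the one gene that passed. PDK1 (chromosome 2, 172555373 to 172608669) was at 0.992, 0.943 and 0.874 FPKM with TGF-β + LIG, against 1.57, 1.499 and 1.46 FPKM with TGF-β. These values rest on 582, 550 and 521 fragments in TGF-β + LIG libraries and 922, 888 and 859 in TGF-β libraries. The groups did not overlap, and the mean FPKM of PDK1 fell by 38.1% with LIG (log2 change -0.38, SE 0.06; limma adjusted p = 0.0494). The pseudocount shrinks the change of a gene at this level, and it was -0.64 with a pseudocount of 0.1 (limma adjusted p = 0.0482) and -0.72 on recovered fragments (limma voom adjusted p = 0.0134). It no longer passed after rescaling to TPM (limma adjusted p = 0.0883), with no filter on low values (0.156) or with robust estimation (0.0506). Leaving out 1 library also ended the call in each of the 6 fits, with limma adjusted p of 0.153, 0.229 and 0.0844 when TGF-β + LIG replicate 1, 2 or 3 was left out and 0.262, 0.169 and 0.233 when TGF-β replicate 1, 2 or 3 was left out, while the log2 change lay between -0.40 and -0.35 in these fits. The mean FPKM of PDK1 over all 6 libraries was 1.22, close to the filter of 1, with 0.936 in TGF-β + LIG and 1.51 in TGF-β libraries, so the call depends on a filter that it passed through the group where it is high.

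PDK2, the widely expressed kinase and the most abundant of the 4 per length, was at 4.15, 4.59 and 5.301 FPKM with TGF-β + LIG, against 5.16, 5.13 and 4.804 FPKM with TGF-β, with overlapping groups. In fragments per library, PDK2 had 658 to 853, PDK1 521 to 922 and PDK3 793 to 907. The order of the kinases and their shares thus rest on the gene lengths used. PDK3 was at 1.66 ± 0.116 FPKM in TGF-β + LIG cells and 1.73 ± 0.0160 FPKM in TGF-β cells (SD, n = 3 each). PDP1, the phosphatase that reverses the kinases, was at 8.11, 8.64 and 7.66 FPKM with TGF-β + LIG, against 8.75, 9.35 and 8.83 FPKM with TGF-β. Its groups did not overlap and the difference did not pass (limma adjusted p = 0.702). The summed level of the 4 kinases was 7.29 ± 0.449 FPKM in TGF-β + LIG cells, against 8.28 ± 0.225 FPKM in TGF-β cells (SD, n = 3 each). PDK1 made up 12.9% of it with TGF-β + LIG and 18.2% with TGF-β.

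Without both libraries that stand apart, 10 of the 35 genes were called lower and 0 higher (n = 2 each; limma), where 2.69% of all tested genes were lower and 1.95% higher (4.65% in all). These were SLC2A1, HK2, PFKL, ALDOC, PGK1, PGAM1, LDHA, SLC16A3, PDHB and PDK1, with adjusted p from 0.000731 (LDHA) to 0.0422 (PDK1). These libraries were left out because of how they lie relative to the others, so the calls are no separate support. Groups that did not overlap were then found in the 4 remaining libraries for 18 lower and 3 higher genes of the 35, against 18.6% and 32.9% of all tested genes, a count added after the data were seen. GAPDH, ENO1 and TPI1 did not pass there, with log2 changes of -0.054, -0.096 and -0.121, although their remaining TGF-β + LIG values lay below the TGF-β values. PKM, LDHB and HK1 did not pass either. The scatter of change against level shows where the genes lie among all genes tested.

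**Figure D4:**
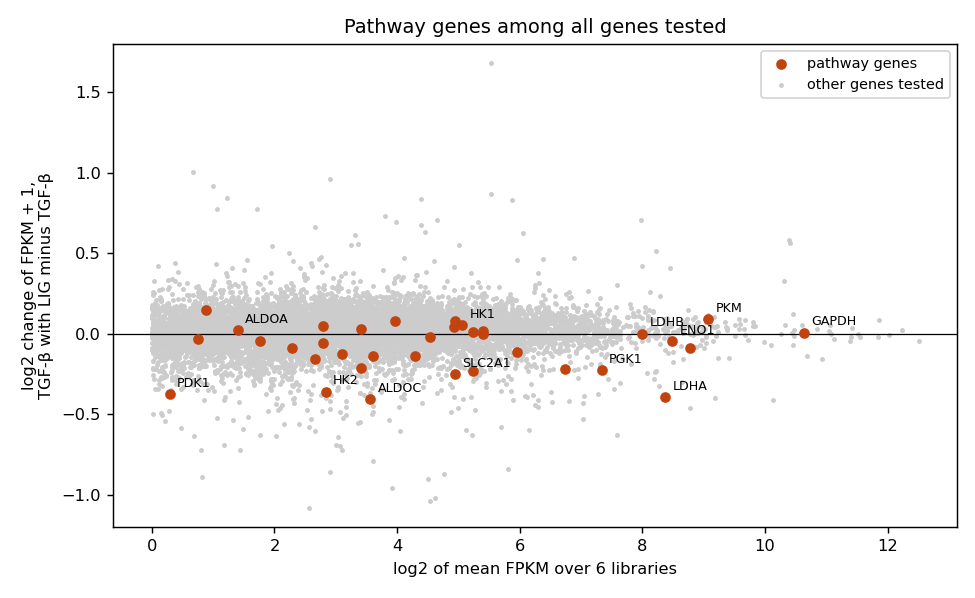
Log2 change of FPKM + 1, TGF-β + LIG minus TGF-β, against the log2 of the mean FPKM over the 6 libraries, for the 35 pathway genes (red, with 12 of them named) and the other genes tested (grey). PDK1 lies at the low end of expression and LDHA among the abundant genes; 90% of all genes tested had changes between -0.18 and 0.18.

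The genes around the pathway were described by lists. Of 9 tested genes among further isoenzymes and transporters of glycolysis none passed, and all 9 had overlapping groups. Of all tested genes, 0.692% passed and 15.8% had groups that did not overlap. BSG, the chaperone of the lactate carriers, was at 131 ± 12.9 FPKM in TGF-β + LIG cells and 124 ± 2.94 FPKM in TGF-β cells (SD, n = 3 each). None of 11 genes that supply lipoate, thiamine or regulation to pyruvate dehydrogenase or related complexes passed. Of 23 genes in and around the tricarboxylic acid cycle none passed. IDH2, the mitochondrial NADP-linked isocitrate dehydrogenase, was at 17.5 ± 1.38 FPKM in TGF-β + LIG cells and 20.6 ± 0.762 FPKM in TGF-β cells. IDH3A, a subunit of the NAD-linked enzyme of the cycle, was at 26.3 ± 0.703 FPKM in TGF-β + LIG cells and 23.3 ± 0.440 FPKM in TGF-β cells. Both had groups that did not overlap, in opposite directions (limma adjusted p = 0.378 for IDH2 and 0.414 for IDH3A). They were the 1 lower and 1 higher gene of the 23, where 6.73% and 9.07% of all tested genes were. Of 7 genes of the NADH shuttles none passed, and GOT2, the mitochondrial aspartate aminotransferase, was at 94.1 ± 3.104 FPKM in TGF-β + LIG cells and 86.3 ± 3.19 FPKM in TGF-β cells (limma adjusted p = 0.699). GOT2 was the 1 gene of the 7 that was higher in each TGF-β + LIG library, and 0 were lower, against 9.07% and 6.73% of all tested genes.

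Of 14 genes of glycogen turnover and gluconeogenesis none passed, and 4 were lower in each TGF-β + LIG library: PGM1, PPP1R3B, GBE1 and PPP1R3C, where 6.73% of all tested genes were lower in this way and 9.07% higher. PGM1, which links glucose 6-phosphate to glycogen, was at 15.8, 15.3 and 17.7 FPKM with TGF-β + LIG, against 19.96, 20.1 and 19.6 FPKM with TGF-β (limma adjusted p = 0.22). GBE1, the glycogen branching enzyme, was at 40.6 ± 1.805 FPKM in TGF-β + LIG cells and 44.98 ± 1.42 FPKM in TGF-β cells (limma adjusted p = 0.592). PPP1R3B, which brings protein phosphatase 1 to glycogen, was at 2.73 ± 0.290 FPKM in TGF-β + LIG cells and 3.62 ± 0.244 FPKM in TGF-β cells (limma adjusted p = 0.261).

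Among 8 genes of HIF control none passed. HIF1A, the oxygen-regulated subunit of HIF-1, was at 225, 222 and 186 FPKM with TGF-β + LIG, against 243, 237 and 240.2 FPKM with TGF-β. All 3 TGF-β + LIG values lay below the TGF-β values, replicate 3 the furthest (limma adjusted p = 0.638). Of the 8 genes, 2 were lower in this way, HIF1A and CITED2, and 0 higher, against 6.73% and 9.07% of all tested genes. CITED2, which competes with HIF-1 for its coactivator, was at 9.48 ± 0.552 FPKM in TGF-β + LIG cells and 10.9 ± 0.590 FPKM in TGF-β cells (limma adjusted p = 0.529), and HIF1AN, an asparaginyl hydroxylase of HIF, at 5.67 ± 0.447 FPKM in TGF-β + LIG cells and 5.08 ± 0.380 FPKM in TGF-β cells (limma adjusted p = 0.755). Of 18 regulators of glycolysis none passed. In 1 of them, TXNIP, the TGF-β + LIG libraries lay below the TGF-β libraries, and in 4, ESRRA, PRKAB1, AKT1 and PTBP1, above (6.73% and 9.07% of all tested genes). ESRRA, an orphan nuclear receptor of energy metabolism, was at 10.9 ± 1.61 FPKM in TGF-β + LIG cells and 9.01 ± 0.302 FPKM in TGF-β cells (limma adjusted p = 0.539), and PRKAB1, a subunit of the energy sensor AMPK, at 14.9 ± 0.733 FPKM in TGF-β + LIG cells and 13.5 ± 0.533 FPKM in TGF-β cells (limma adjusted p = 0.654). MYC was at 29.4 ± 1.19 FPKM in TGF-β + LIG cells and 29.2 ± 1.201 FPKM in TGF-β cells, and TXNIP, a glucose-responsive inhibitor of glucose uptake, at 13.1, 14.02 and 13.6 FPKM with TGF-β + LIG, against 16.1, 18.3 and 16.03 FPKM with TGF-β (limma adjusted p = 0.222).

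Of 21 tested hypoxia-induced genes outside glycolysis, 5 fell and 1 rose, where 0.505% and 0.187% of all tested genes did; the median log2 change of the 21 was -0.21. TMEM45A, a transmembrane protein gene of hypoxia signatures, fell to 4.56 ± 0.438 FPKM in TGF-β + LIG cells, against 7.32 ± 0.715 FPKM in TGF-β cells (limma adjusted p = 0.037). The other called genes were LOX, AK4, P4HA1 and BNIP3, which fell with log2 changes from -1.04 (LOX) to -0.48 (P4HA1), and ANGPTL4, which rose (log2 change 0.83). VEGFA was also higher in each TGF-β + LIG library and did not pass (log2 change 0.33, limma adjusted p = 0.0892). In all, 11 of the 21 were lower and 2 higher in each such library, against 6.73% and 9.07% of all tested genes. NDRG1, STC2 and BHLHE40 overlapped, with log2 changes of 0.006, 0.008 and 0.019. For comparison, the changes of PDK1, ALDOC, LDHA and HK2 lay between -0.41 and -0.36 on this scale, which understates those of low genes. In mean FPKM they were -38.1% for PDK1, -26.3% for ALDOC, -24.7% for HK2 and -23.9% for LDHA. Those of LOX, AK4 and P4HA1 were -53%, -51.8% and -29.3%.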

How the data were processed

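FPKM values were deposited by the authors in 1 table of 6 library columns. Per the submitters' processing notes, fastp, HISAT2 2.1.0, DESeq2 and GRCh38.p13 were used, with no role stated; counting tool, annotation and use of strand are not given in the sources used here. Columns were matched to samples by title. Values of each gene were whole multiples of a step, so fragments were recovered for 22701 of 22701 genes as the smallest whole numbers within 0.01 (100% of 114123 values above 0); they served for depth and 1 alternative. The 10695 genes averaging 1 FPKM or more entered limma 3.58.1 in R 4.3.3 as log2(FPKM + 1) (group only, mean-variance trend, two-sided, Benjamini-Hochberg at 0.05), with 4 residual and 4.1 prior degrees of freedom. A fold change on this scale understates that of low genes. An exact permutation test of 3 against 3 cannot go below p = 0.1. Step sums, shares and ratios are descriptions. Gene positions and overlaps came from GENCODE 29, promoter windows from RefSeq (GRCh38.p14), with 33 of 37 genes matched. The members and lists were chosen with earlier results of these data known. Values in each library were given for genes that passed, genes with a log2 change of at least 0.2 in size and groups that do not overlap, and the most abundant gene of each step; further genes were added after their values were seen. From the other lists, called genes and up to 3 with the smallest adjusted p were eligible, and others, MYC and BSG among them, were added afterwards. Alternatives covered pseudocount, filter, scaling, model, replicate block and left-out libraries.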

Additional observations from a re-analysis of the deposited data

How the results depend on the processing

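The number of all genes called was 74. It was 14 with no filter on low values, 1891 with library quality weights, 497 without both libraries that stand apart, and 11 to 93 when 1 library was left out. Of the 35 pathway genes, 1 was called; the count was 0 with no filter, 0 at a mean FPKM of at least 5 (PDK1 is then not tested), 0 with robust estimation, 2 after rescaling to TPM, 3 after quantile normalization, 2 on recovered fragments (82 of all genes), 13 with library quality weights, 10 without both libraries that stand apart, and 0 to 2 when 1 library was left out. The cause of these shifts was not tested. With the replicate number as a block, 22 genes and 0 pathway genes were called (PDK1 adjusted p = 0.228, limma); deviations of same-numbered libraries correlated at 0.469, -0.574 and -0.337, so the numbers were not taken to pair them.

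Genes that were lower by at least 0.1 on the log2 scale kept their direction under each alternative run. Others changed sign (log2 changes): under library quality weights PFKP (-0.061), ALDOA (-0.218), GAPDH (-0.051), ENO3 (-0.002), PKM (-0.003) and PDHA1 (-0.009); without both libraries that stand apart ALDOA (-0.070), GAPDH (-0.054), PDHA1 (-0.014) and DLD (0.015); after rescaling to TPM, quantile normalization, median centring and on recovered fragments GAPDH (-0.013, -0.028, -0.014, -0.019), SLC16A1 (-0.003, -0.006, -0.004, -0.009) and PDHA1 (-0.008, -0.008, -0.008, -0.013). With 1 library left out, the ranges that crossed 0 were -0.055 to 0.023 (GPI), -0.077 to 0.001 (PFKFB4), -0.034 to 0.138 (ALDOA), -0.084 to 0.066 (GAPDH), -0.104 to 0.082 (LDHB), -0.004 to 0.057 (SLC16A1), -0.121 to 0.039 (MPC1), -0.063 to 0.137 (MPC2), -0.063 to 0.061 (PDHA1), -0.013 to 0.074 (PDHX) and -0.042 to 0.051 (DLD). Step sums moved by less than 1 SD between replicates. With 1 library left out, this limit cannot be exceeded by construction, so those fits cannot show stability. Depth limited ENO3 (98 to 153 fragments) and PDK4 (0 to 4).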

Other observations

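GAPDH is widely used as a reference transcript. Its own level was highest in TGF-β + LIG replicate 3, and ratios to it within a library are given here. LDHA over GAPDH was 0.191, 0.177 and 0.170 with TGF-β + LIG and 0.235, 0.239 and 0.237 with TGF-β. PGK1 over GAPDH was 0.101, 0.0940 and 0.0865 with TGF-β + LIG and 0.109, 0.110 and 0.111 with TGF-β; the TGF-β values are nearly equal and the TGF-β + LIG values lie below them. TPI1 over GAPDH averaged 0.267 with TGF-β + LIG and 0.285 with TGF-β, and was lower in each TGF-β + LIG library. PGAM1 over GAPDH, which averaged 0.0622 with TGF-β + LIG and 0.0727 with TGF-β, was lower in the same way. ENO1 over GAPDH was 0.231, 0.219 and 0.215 with TGF-β + LIG and 0.229, 0.226 and 0.234 with TGF-β, and overlapped. PKM over GAPDH was 0.360, 0.346 and 0.340 with TGF-β + LIG and 0.334, 0.313 and 0.340 with TGF-β, with TGF-β + LIG replicate 3 nearly equal to TGF-β replicate 3 and the other TGF-β + LIG values above all TGF-β values. These ratios do not show which gene changed; they were chosen after the values were seen and were not tested.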
